A study of Sus scrofa with 2 samples.

Results

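The CRABP1-type stroma of library 1 is a population of collagen-rich fibroblasts of the pig endometrium, the lining of the uterus. Its 1098 barcodes were 10.9% of the 10045 barcodes of that library (exact Clopper-Pearson 95% interval, 10.3% to 11.6%), and the series holds 25138 barcodes in all. A barcode stands for 1 droplet and in most cases for 1 cell, and a UMI stands for 1 captured transcript molecule. Members were chosen on raw UMIs. COL1A1, COL1A2 and COL3A1 together had to reach 1% of UMIs, PDGFRA at least 1 UMI and PTPRC 0 UMIs. The summed UMIs of CRABP1, COL23A1, SPOCK3, OGN and PENK then had to exceed those of ANPEP, IGFBP6, WNT2B, MFAP5 and C3 by at least 3.

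The study profiled endometrium of 2 inseminated Yorkshire sows of 3 years and like genetic background, collected from the uterine horns and dissociated with collagenase, dispase and DNase before droplet capture of transcript 3' ends. Its design text names a pre-receptive sow at day 7 of gestation and a receptive sow at day 13. Library 1 was deposited under the abbreviation for the pre-receptive period and library 2 under that for the receptive period, whereas the sample labels carry only the numbers 1 and 2. With 1 animal, 1 digest and 1 library on each side, these cannot be told apart from stage, no test between libraries was possible, and all intervals here cover counting error only.

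Cellular retinoic acid binding protein 1, the product of CRABP1, holds retinoic acid in the cytosol, and the aldehyde dehydrogenases ALDH1A1 and ALDH1A2 make retinoic acid from retinal. Endometrial stromal fibroblasts build the collagen matrix of the uterus, respond to estradiol and progesterone through ESR1 and PGR, and send signals such as IGF1 and WNT ligands to the glands above them. Osteoglycin (OGN) and SPOCK3 are secreted proteoglycans, PENK is the precursor of the enkephalin opioid peptides, and COL23A1 is a transmembrane collagen.

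In library 1, 2438 barcodes passed the collagen, PDGFRA and PTPRC gates. The CRABP1-type members were 45.0% of them (43.0% to 47.0%), against 714 ANPEP-type barcodes (29.3%) whose difference was -3 UMIs or less, and 626 undivided barcodes (25.7%) in between. The members had a median of 5444 UMIs (range 837 to 47209), close to the 5361.5 of ANPEP-type barcodes, and the undivided barcodes had 3635. In library 2 the same rule found 318 CRABP1-type barcodes, 16.2% of 1966 gated barcodes (14.6% to 17.9%), with a median of 5226 UMIs. Scrublet, which scores barcodes against simulated mixtures of cells, called 197 members (17.9%) doublets, against 1110 of all 10045 library 1 barcodes, and they were kept. The libraries shared 48 barcode sequences, of which 1 was a member in library 1 and none was a member in both.

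The levels of the genes of the rule describe how the members were chosen and were not tested. Levels are a gene's summed UMIs per 1000000 UMIs of the population (CPM). CRABP1 (ENSSSCG00025061035 in the deposited feature table) stood at 797 CPM in CRABP1-type stroma of library 1 and at 113 CPM in ANPEP-type stroma. COL23A1 stood at 306 CPM in CRABP1-type and 43.4 CPM in ANPEP-type stroma. SPOCK3 stood at 221 CPM and PENK at 141 CPM in CRABP1-type stroma, and ANPEP-type stroma had 26.6 CPM of SPOCK3 and 23.2 CPM of PENK. These 4 genes were far apart between the populations by construction. OGN was closer, at 585 CPM in CRABP1-type and 365 CPM in ANPEP-type stroma.

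IGF1, the growth factor that the label also names as a marker, was not part of the rule. It stood at 825 CPM in CRABP1-type stroma and at 721 CPM in ANPEP-type stroma, a log2 ratio of 0.19 (95% interval 0.13 to 0.26). In library 2 the order was the opposite, with 268 CPM in CRABP1-type and 329 CPM in ANPEP-type stroma (log2 ratio -0.30, -0.45 to -0.15). Endothelial barcodes of library 1 had 27.3 CPM and leukocytes 38.0 CPM. IGF1 was thus high in both stromal types, and although the label names it as a marker it did not set CRABP1-type members apart from ANPEP-type ones.

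**Figure D1:**
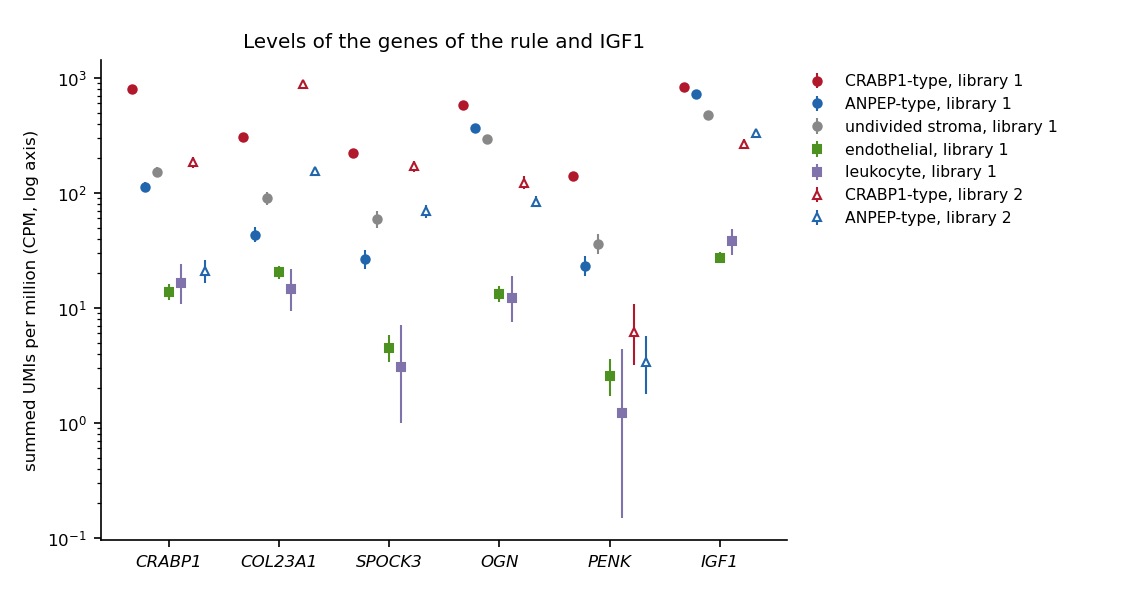
Level of the 5 genes on the CRABP1 side of the rule and of IGF1 (CPM, log axis) in summed populations, with exact Poisson 95% intervals as bars; circles and squares are library 1, open triangles library 2. CRABP1, COL23A1, SPOCK3 and PENK are highest in library 1 in the CRABP1-type population that they define, while IGF1 lies at 825 CPM there and 721 CPM in ANPEP-type stroma.

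Members did not all carry the same genes of the rule. CRABP1 was detected in 80.6% of members, COL23A1 in 74.2%, SPOCK3 in 65.4%, OGN in 89.3% and PENK in 33.3%. Of the 1098 members, 175 had UMIs of all 5 genes, 367 of 4, 340 of 3, 186 of 2 and 30 of 1 gene. As shares of barcodes with a UMI after thinning each barcode to 1000 UMIs, CRABP1 was found in 48.7% of members, against 1.2% of endothelial and 1.7% of leukocyte barcodes, which is read as the background. That comparison held 1096 members, 2378 endothelial and 424 leukocyte barcodes, whose unthinned shares with CRABP1 were 80.6%, 5.47% and 4.49% and whose median depths were 5444, 3518 and 1838 UMIs. The same shares for PENK were 11.6% of members, 0.3% of endothelial and 0.2% of leukocyte barcodes. Members were chosen on CRABP1 and PENK, and the other barcodes without PDGFRA and with a collagen share under 1%. The gap between them was thus partly set by the choice. PENK was also the most unevenly spread: 732 members had none, and the tenth of members with most PENK held 63.0% of its UMIs, against 33.1% for CRABP1 and 27.6% for IGF1.

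The difference of the gene sums had a median of 9 UMIs in members (quartiles 5 and 14, maximum 51). At the edge of the rule, 102 members had a difference of exactly 3, and 98 gated barcodes outside it had a difference of 2. A total of 409 members (37.2%) had no UMI of the 5 genes on the ANPEP side. Without COL23A1 in the sum, 973 of the 1098 members (88.6%) would still have passed in library 1, but only 97 of the 318 (30.5%) in library 2, where COL23A1 supplied 64.6% of the UMIs of the 5 genes. The 2 populations found by the rule thus rest on different genes: in library 1 CRABP1 gave 38.9% and OGN 28.5% of those UMIs.

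Markers of other cell types were present in members. Endothelial markers (5 of 6 listed genes have a symbol in the files) summed to 177 CPM in CRABP1-type members, 203 CPM in ANPEP-type stroma and 1906 CPM in endothelial barcodes, and 27.6% of members had at least 1 such UMI. Leukocyte markers (6 of 9) summed to 145 CPM in members, 70.9 CPM in ANPEP-type stroma and 4506 CPM in leukocytes. Of the 763 UMIs of the immunoglobulin joining chain gene JCHAIN in members, 243 and 151 came from 2 barcodes. Lymphatic markers (3 of 4) summed to 26.2 CPM in members and 39.6 CPM in ANPEP-type stroma. The epithelial keratins KRT8 and KRT18 (2 of 6) summed to 15.0 CPM in members and 30.1 CPM in ANPEP-type stroma. Smooth muscle and pericyte genes (7 of 9) summed to 1803 CPM in members and 2408 CPM in ANPEP-type stroma, and 1291 CPM in endothelial barcodes, and 89.9% of members had at least 1 such UMI. PTPRC was at 0 by the rule, and of the mesothelial list only WT1, given below, has a symbol. The part of these other transcripts in the results below was not tested, apart from the values given without the clusters they lead.

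When the 2438 gated barcodes of library 1 were clustered without the 14 genes of the rule, members gathered in 1 cluster. Cluster 1 held 714 members (65.0% of all members), 8 ANPEP-type and 94 undivided barcodes. Its leading genes were TMEM52, ANO4, VAV3, HPGD, PLA2G7, GJA1, NTRK2, CREB5, COLEC11 and APCDD1. Cluster 0 held 108 members and 434 ANPEP-type barcodes and was led by IGFBP2, HHIP, LPL, CPZ and ENPP2, and cluster 7 held 29 members and 80 ANPEP-type barcodes and was led by SULT1E1, DKK2, EPHA3, APOD and ALDH1A1. The genes that the rule did not read thus divided the stroma along nearly the same line as the rule did, for most but not all members. A further 233 members (21.2%) lay in 6 clusters led by genes of other cell types, such as cluster 3 (CDH5, KDR and FLT1 of endothelium, 104 members). Another was cluster 5 (88 members), led by EDNRB, FHL5 and TINAGL1, with ACTG2 and DES of smooth muscle further down its leading genes. The 233 members had a median of 8162 UMIs, against 5074 UMIs in the other members.

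**Figure D2:**
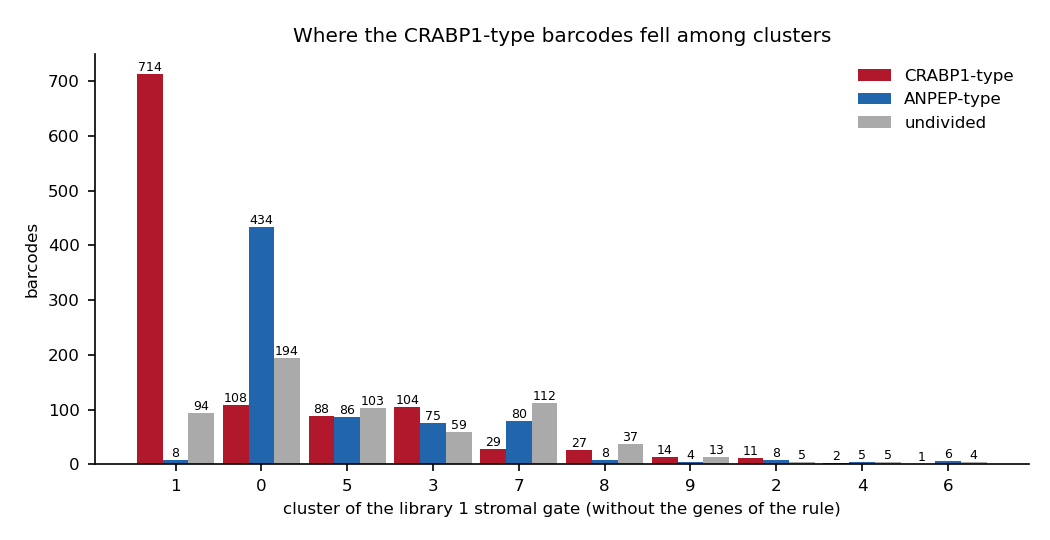
Number of library 1 gated barcodes of each kind (y axis, bars with their counts) in each of 10 clusters (x axis, ordered by size) made without the genes of the rule. Cluster 1 holds 714 CRABP1-type and 8 ANPEP-type barcodes, and cluster 0 holds 108 CRABP1-type and 434 ANPEP-type barcodes.

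The members outside cluster 1 differed from those inside it in the genes that led the clusters, so these values are a description. The 137 members in clusters 0 and 7 had 927 CPM of CRABP1, and the 714 members in cluster 1 had 926 CPM. HPGD stood at 35.7 CPM in members of clusters 0 and 7 and at 254 CPM in members of cluster 1, and APCDD1 at 71.5 CPM and 318 CPM in the same order. ALDH1A1 stood at 397 CPM in members of clusters 0 and 7 against 80.4 CPM in those of cluster 1, APOD at 591 CPM against 116 CPM, and IGFBP5 at 2501 CPM against 753 CPM. The rule read CRABP1 in both sets, so its level says nothing of how they differ. On the 5 other genes the members of clusters 0 and 7 were on the side of ANPEP-type stroma, which in those clusters had 561 CPM of ALDH1A1, 1945 CPM of APOD and 2895 CPM of IGFBP5. OGN stood at 715 CPM in members of clusters 0 and 7 and 661 CPM in those of cluster 1.

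CRABP1-type stroma was next set against ANPEP-type stroma of the same library, the population most like it. Of 4903 genes with a symbol, outside the rule and with a mean of at least 20 CPM, 44 (0.897%) were at least 2-fold higher in CRABP1-type stroma and 69 (1.41%) at least 2-fold lower. Without the clusters led by other cell types, a setting added after seeing the data, 65 genes were 2-fold higher and 99 were 2-fold lower. Since the rule chose both populations on this contrast, the values describe it and no test was made. All ratios below are log2 ratios of CPM, CRABP1-type over ANPEP-type, with exact conditional binomial 95% intervals.

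The 15 genes with the highest ratios among those of at least 100 CPM in the higher population included 2 enzymes that break down lipid mediators and an inhibitor of WNT signalling. HPGD, the dehydrogenase that inactivates prostaglandins, stood at 210 CPM in CRABP1-type and 47.9 CPM in ANPEP-type stroma, a log2 ratio of 2.13 (1.92 to 2.35). APCDD1, a membrane inhibitor of WNT signalling, stood at 282 CPM in CRABP1-type and 70.4 CPM in ANPEP-type stroma (2.00, 1.82 to 2.18). TMEM52, a transmembrane protein, had the highest ratio at 2.25 (1.97 to 2.54), with 132 CPM in CRABP1-type and 27.7 CPM in ANPEP-type stroma. PLA2G7, which breaks down platelet-activating factor, stood at 109 CPM in CRABP1-type and 37.9 CPM in ANPEP-type stroma. COLEC11, a soluble collectin of the lectin complement pathway, stood at 168 CPM in CRABP1-type and 54.5 CPM in ANPEP-type stroma.

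The gap junction gene GJA1 stood at 304 CPM in CRABP1-type stroma, 112 CPM in ANPEP-type stroma and 173 CPM in endothelial barcodes. CNN3, an actin-binding calponin, stood at 747 CPM in CRABP1-type and 343 CPM in ANPEP-type stroma (1.12, 1.04 to 1.21). WT1, a transcription factor of endometrial stroma, stood at 158 CPM in CRABP1-type and 74.0 CPM in ANPEP-type stroma, and at 2.79 CPM in endothelial barcodes. The remaining 7 were ANO4 (log2 ratio 1.74), CREB5 (1.59), ISYNA1 (1.29), RASSF8 (1.20), PRR16 (1.14), HOPX (1.09) and GADD45G (1.08).

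The 12 genes with the lowest ratios included the hedgehog inhibitor HHIP, lipid genes and matrix genes. HHIP, which binds hedgehog ligands and is itself induced by hedgehog signalling, stood at 11.9 CPM in CRABP1-type and 149 CPM in ANPEP-type stroma (-3.65, -4.00 to -3.30), with UMIs in 4.74% of members. APOD, an apolipoprotein, stood at 228 CPM in CRABP1-type and 1596 CPM in ANPEP-type stroma (-2.81, -2.89 to -2.73). ALDH1A1 stood at 121 CPM in CRABP1-type and 459 CPM in ANPEP-type stroma (-1.93, -2.05 to -1.81). The proteoglycan gene PRELP stood at 65.2 CPM in CRABP1-type and 312 CPM in ANPEP-type stroma (-2.26), and the fibulin gene EFEMP1 at 38.7 CPM and 157 CPM in the same order (-2.02). LOX, which cross-links collagen, stood at 139 CPM in CRABP1-type and 404 CPM in ANPEP-type stroma (-1.54). The others were ENPP2 (-1.97), LPL (-1.66), COL12A1 (-1.61), FMO1 (-1.47), FAP (-1.41) and FGL2 (-1.39).

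Over bins of the difference of the gene sums, with each barcode thinned to 1000 UMIs, the named genes differed in how they went with the genes that the rule read, which is a description only. APOD stood at 1805 CPM in barcodes with a difference of -10 or less, at 1226 CPM at a difference of 0, at 794 CPM at 1 to 2, at 387 CPM at 3 to 5 and at 135 CPM at 10 or more. HPGD stood at 29.1 CPM at -10 or less, 124 CPM at 0, 239 CPM at 1 to 2, 237 CPM at 3 to 5, 318 CPM at 6 to 9 and 198 CPM at 10 or more. HPGD thus had nearly the same level just outside the threshold of 3 as just inside it, while APOD was still higher outside. HPGD was also a leading gene of cluster 8, beside IL13RA2, POSTN and RGS5, at 771 CPM against 124 CPM in the other gated barcodes. Of the 72 barcodes of cluster 8, 37 were undivided and 27 were members. Their part in the levels of HPGD near the threshold was not tested. ALDH1A1 stood at 467 CPM at 0, 215 CPM at 1 to 2 and 147 CPM at 3 to 5.

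**Figure D3:**
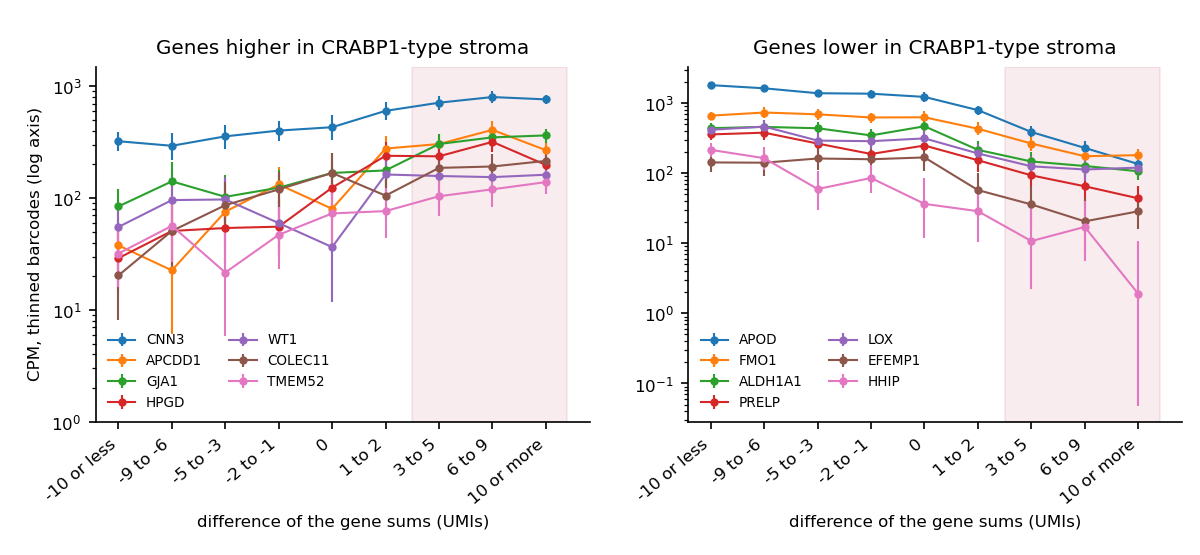
Level (CPM, log axis, exact Poisson 95% intervals) of 7 genes higher and 7 genes lower in CRABP1-type stroma across bins of the difference of the 2 gene sums in gated library 1 barcodes thinned to 1000 UMIs; the shaded bins hold the members. APOD is highest at the left end (1805 CPM) and lowest at the right end (135 CPM), and HPGD is at 237 CPM in the first shaded bin.

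Library 2 did not enter the choice of these 27 genes, so its values check their direction under the same rule in another animal. The rule rested mostly on COL23A1 there, and CRABP1 was found in 33.0% of its CRABP1-type barcodes, against 80.6% in library 1. The check is thus of a population chosen largely on another gene, and it was not run without COL23A1. In library 2, 23 of the 27 had the same direction in CRABP1-type over ANPEP-type stroma, 20 of them with an interval that excluded 0. In 25 of 27 the ratio was smaller in size than in library 1. The genes were chosen for the most extreme ratios of library 1, so smaller ratios elsewhere are no result about library 2. Among all 4379 genes measured in both libraries, 54.9% had a ratio above 0 and 45.1% below 0 in library 2. Of all 40 genes 2-fold higher in library 1 and measured in both, 32 were above 0 in library 2, and of the 47 that were 2-fold lower, 35 were below 0. HHIP stood at 11.9 CPM in CRABP1-type and 120 CPM in ANPEP-type stroma of library 2 (-3.34, -4.01 to -2.73). ALDH1A1 stood at 77.7 CPM in CRABP1-type and 392 CPM in ANPEP-type stroma of library 2 (-2.33), and LPL had a ratio of -1.72 there. HPGD stood at 118 CPM in CRABP1-type and 56.2 CPM in ANPEP-type stroma of library 2 (1.07, 0.80 to 1.35), the only one of the 15 highest genes to stay above 2-fold. ENPP2, ISYNA1, HOPX and GADD45G had ratios of the opposite sign, and for HOPX (-0.37, -0.71 to -0.03) and GADD45G (-0.50, -0.61 to -0.40) the interval excluded 0. In library 2, 28 of 5237 genes (0.535%) were at least 2-fold higher and 42 (0.802%) at least 2-fold lower in CRABP1-type stroma.

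**Figure D4:**
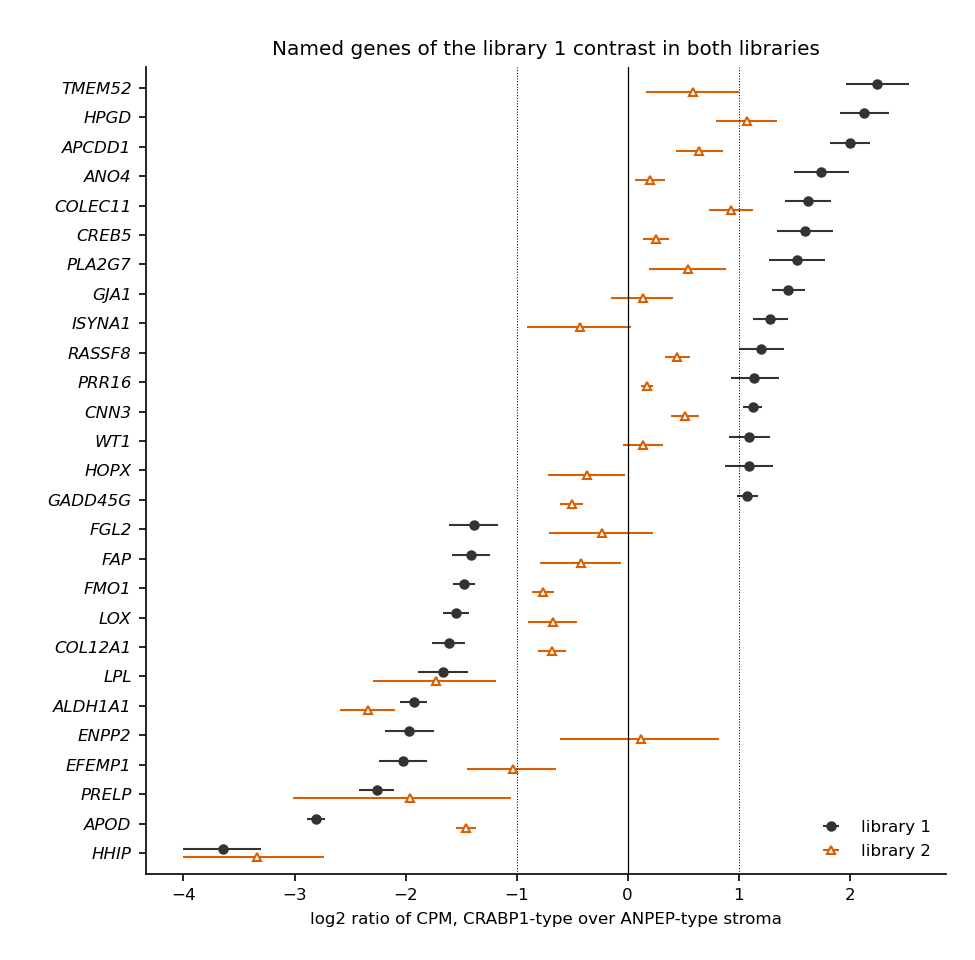
Log2 ratio of CPM, CRABP1-type over ANPEP-type stroma, for the 15 highest and 12 lowest genes of library 1 (filled circles) and the same genes in library 2 (open triangles), with exact conditional binomial 95% intervals and dotted lines at 2-fold. HHIP (-3.34), ALDH1A1 (-2.33), LPL (-1.72) and PRELP (-1.96) lie beyond 2-fold in library 2 too, and GADD45G and HOPX lie on the other side of 0 there.

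The gene lists below were described by how many tested members were at least 2-fold apart and by their median log2 ratio, CRABP1-type over ANPEP-type in library 1, beside a median of -0.01 over all 4903 genes. Of 11 retinoic acid genes, 1 was 2-fold higher and 2 were 2-fold lower (median -0.40), while in library 2 the list's median was 0.075 over 10 genes. ALDH1A2 stood at 182 CPM in CRABP1-type and 89.1 CPM in ANPEP-type stroma (1.03, 0.86 to 1.20), the reverse of ALDH1A1. FABP5, a fatty acid binding protein that also carries retinoic acid, stood at 30.0 CPM in CRABP1-type and 65.2 CPM in ANPEP-type stroma. FABP5 was also a leading gene of cluster 2, beside the lymphatic genes CCL21 and PROX1, at 1432 CPM against 27.5 CPM in the other gated barcodes. Cluster 2 held 11 members and 8 ANPEP-type barcodes, and its part in the FABP5 levels was not tested. The retinal reductase DHRS3 had a ratio of -0.76 and the retinol dehydrogenase RDH10 one of -0.58, under 2-fold. In library 2 ALDH1A2 had a ratio of 0.51 and ALDH1A1 of -2.33, so the opposed order of the 2 synthesis enzymes was seen in both libraries.

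Of 10 genes of the IGF axis, 1 was 2-fold higher and 1 was 2-fold lower (median -0.36). IGFBP5, a secreted IGF binding protein, stood at 1146 CPM in CRABP1-type and 2496 CPM in ANPEP-type stroma (-1.12). The higher one, STC1, which encodes a secreted glycoprotein that inhibits IGF binding protein cleavage, stood at 47.1 CPM in CRABP1-type and 6.16 CPM in ANPEP-type stroma, and was named after its value was seen. IGFBP2 (-0.60) and IGFBP4 (-0.52) were lower by less than 2-fold. None of 8 steroid receptor genes and partners was 2-fold apart (median 0.08): ESR1 stood at 254 CPM in CRABP1-type and 179 CPM in ANPEP-type stroma, and PGR at 137 CPM and 116 CPM in the same order. HSD17B4 (0.49) and PGRMC1 (-0.29) were likewise under 2-fold.

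None of 15 transcription factors of uterine stroma was 2-fold apart (median 0.25), and 10 of 15 had ratios above 0. HAND2, a progesterone-induced factor of the stroma, stood at 58.9 CPM in CRABP1-type and 30.6 CPM in ANPEP-type stroma (0.95), and TBX3 had a ratio of 0.87. Of 13 WNT genes, 1 was 2-fold higher and 2 were 2-fold lower (median -0.19). The ligand WNT5A stood at 177 CPM in CRABP1-type and 88.7 CPM in ANPEP-type stroma (1.00, 0.83 to 1.17), just short of 2-fold, and the effector TCF7L2 had a ratio of -0.61. The lower 2, named after their values were seen, were the secreted inhibitors SFRP1 (9.33 CPM in CRABP1-type and 36.8 CPM in ANPEP-type stroma) and DKK2 (14.5 CPM and 40.8 CPM in the same order). Among 6 hedgehog genes (median -0.44), HHIP was the only one 2-fold lower, and the hedgehog transcription factors GLI1 (-0.94) and GLI2 (-0.52) had ratios below 0. In library 2 GLI2 had a ratio of -0.39. GLI1 had one of -0.80 there, but its level lay below the minimum of 20 CPM, so no direction is read from it.

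Other signalling lists were mixed. Of 18 BMP and TGF-beta genes, TGFB3 alone was 2-fold higher (87.1 CPM in CRABP1-type and 43.2 CPM in ANPEP-type stroma), and the list's median was -0.04, with FSTL1 at -0.81 and ID1 at 0.79. Of 14 growth factor genes of the FGF, HGF, PDGF and EGF families (median -0.15), the neuregulin NRG2 was 2-fold higher (1.08) and the lymphangiogenic factor VEGFD 2-fold lower (-1.16), with VEGFC at -0.99. Of 9 chemokine and cytokine genes (median -0.25), CCL19 was 2-fold lower, at 82.8 CPM in CRABP1-type and 183 CPM in ANPEP-type stroma, and CXCL12 (-0.84) and CXCL2 (-0.50) were under 2-fold. CCL19 stood at 23.6 CPM in the members of cluster 1 and at 197 CPM in those of the clusters led by other cell types. None of 14 interferon response genes was 2-fold apart (median 0.08), with MX1 at 0.83, USP18 at 0.54 and IRF9 at 0.53. Of 7 genes on the complement list (median -0.44), the C1q/TNF-related gene C1QTNF7 was 2-fold higher (1.27). SERPING1 (-0.99) and C1R (-0.78) were lower by less than 2-fold.

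The matrix lists all had medians below that of all genes in library 1. Of 14 genes for fibrillar collagens and their processing, 2 were 2-fold lower (median -0.30), LOX and the lysyl hydroxylase PLOD2 (60.4 CPM in CRABP1-type and 124 CPM in ANPEP-type stroma), and COL5A1 had a ratio of -0.58. COL1A1, which the rule read, stood at 13453 CPM in CRABP1-type and 22011 CPM in ANPEP-type stroma. Of 7 other collagens and basement membrane genes (median -0.22), COL12A1 was 2-fold lower, with COL4A5 at 0.49 and LAMB2 at -0.48. Of 9 small leucine-rich and large proteoglycans, 3 were 2-fold lower (median -0.39): PRELP, FMOD (99.8 CPM in CRABP1-type and 256 CPM in ANPEP-type stroma) and VCAN (147 CPM and 322 CPM in the same order). Of 21 elastic and matricellular genes, 5 were 2-fold lower and none higher (median -0.49), among them EFEMP1, FGL2, ECM1 (-1.63) and MATN2 (-1.18), with THBS3 (-1.06) named after its value was seen.

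Of 21 proteases and inhibitors, 1 was 2-fold higher and 3 were 2-fold lower (median -0.27). FAP stood at 68.5 CPM in CRABP1-type and 183 CPM in ANPEP-type stroma. MMP16 (-2.41) was also 2-fold lower and the urokinase gene PLAU (1.22) was the higher one, both named after their values were seen. Of 11 universal and adventitial fibroblast genes, 4 were 2-fold lower and none higher (median -0.70): NT5E (-1.25), THY1 (-1.22), GFPT2 (-1.15) and IGFBP5. Of 16 lipid genes, 6 were 2-fold lower and none higher (median -0.61), among them APOD, LPL and FABP5, the last with the limit given above. The sterol-regulated genes SQLE (-1.18) and INSIG1 (-1.01), named after their values were seen, were also among the 6. In library 2 the medians of the 2 lists were -0.25 for universal fibroblast genes and -0.13 for lipid genes, beside 0.04 over all genes there.

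The list of 13 neuropeptide, neural adhesion and guidance genes (median 0.08) held large ratios for SST and NMB, which rested on few barcodes. SST, the precursor of somatostatin, stood at 51.6 CPM in CRABP1-type and 4.98 CPM in ANPEP-type stroma (3.37, 2.74 to 4.08). Its 337 UMIs lay in 31 of 1098 members (2.82%, 1.93% to 3.98%), and 10 barcodes held 77.4% of them. The neuromedin gene NMB stood at 5.81 CPM in CRABP1-type and 86.5 CPM in ANPEP-type stroma (-3.90), where 1 barcode held 197 of 365 UMIs. The ephrin receptor gene EPHA3 stood at 9.94 CPM in CRABP1-type and 54.3 CPM in ANPEP-type stroma (-2.45), with a ratio of -1.97 in library 2. The netrin gene NTN4 was also 2-fold lower (-1.66), named after its value was seen.

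Immediate early and stress genes, which dissociation is known to induce, were above 0 in 21 of 24 cases in library 1 (median 0.32), though none was 2-fold apart. ATF3 stood at 302 CPM in CRABP1-type and 166 CPM in ANPEP-type stroma, GADD45B had a ratio of 0.86 and the heat shock gene DNAJB1 of 0.80. In library 2, 20 of 27 such genes were below 0 (median -0.11). Ribosomal protein genes were above 0 in 61 of 62 cases in library 1 (median 0.26) and in 3 of 62 in library 2 (median -0.15), and took 16.0% of UMIs in CRABP1-type and 13.4% in ANPEP-type stroma of library 1. Of 16 contractile genes (median -0.29), ACTG2 (-1.23) and DES (-1.06) were 2-fold lower and KCNJ8 (1.13) was 2-fold higher. ACTG2 stood at 2.95 CPM in the members of cluster 1 and 64.9 CPM in members of the clusters led by other cell types. HPGD was the 1 prostaglandin gene of 2 tested that was 2-fold apart. None of 16 hypoxia and glycolysis genes (median 0.05), of 10 genes with very long introns (median -0.08) or of 2 proliferation genes (median -0.05) was 2-fold apart.

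CRABP1-type stroma of library 1 was then set against the barcodes that the same rule found in library 2. Of 5283 genes with a mean of at least 20 CPM, 494 (9.35%) were at least 2-fold higher in library 1 and 1428 (27.0%) at least 2-fold lower. With the rule read without COL23A1, a setting added after seeing the data, 564 genes were 2-fold higher and 1438 were 2-fold lower. The median log2 ratio of all genes, library 1 over library 2, was -0.15, and scaling by trimmed mean of M-values (TMM) moved all ratios by 0.15.

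Of the genes that define the population, PENK was the furthest apart, at 141 CPM in CRABP1-type stroma of library 1 and 6.22 CPM in that of library 2 (log2 ratio 4.50, 3.69 to 5.46). CRABP1 stood at 797 CPM in library 1 and 184 CPM in library 2 (2.11, 1.96 to 2.27), OGN at 585 CPM in library 1 and 123 CPM in library 2 (2.25), and SPOCK3 at 221 CPM in library 1 and 170 CPM in library 2 (0.37). COL23A1 was lower, at 306 CPM in library 1 and 881 CPM in library 2 (-1.53). IGF1, outside the rule, stood at 825 CPM in library 1 and 268 CPM in library 2 (1.62, 1.49 to 1.76). CRABP1, OGN, PENK and COL23A1 chose both populations, and COL23A1 took a larger share of that choice in library 2, so these values describe the choice. OGN (2.03), PENK (3.71) and IGF1 (2.06) were also higher in endothelial barcodes of library 1, but at low levels. PENK stood at 2.53 CPM (30 UMIs) in endothelial barcodes of library 1 and 0.194 CPM (4 UMIs) in those of library 2. OGN stood at 13.3 CPM and 3.25 CPM in the same order, and IGF1 at 27.3 CPM and 6.55 CPM. No expression in endothelium is read from these values. CRABP1 stood at 13.9 CPM in endothelial barcodes of library 1 and 1.65 CPM in those of library 2 (3.07).

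Among the 10 lowest ratios were 3 genes known from uterine glands. UABP-2 and ACP5, which encode proteins that uterine glands secrete in pregnancy, and RBP4, the plasma retinol carrier that glands also secrete, were nearly absent from members in library 1. UABP-2 had 3 UMIs in all members of library 1, or 0.459 CPM, against 860 CPM in library 2. ACP5 stood at 2.75 CPM in CRABP1-type stroma of library 1 and 2127 CPM in that of library 2, and RBP4 at 13.3 CPM and 1137 CPM in the same order. In library 2 these transcripts were at least as common in other cells: after thinning to 1000 UMIs, ACP5 was found in 56.6% of CRABP1-type, 73.6% of leukocyte and 64.9% of endothelial barcodes, whose unthinned median depths were 5226, 2865 and 5712.5 UMIs. UABP-2 was found in 30.8%, 44.3% and 37.4% of the same 3 populations, and RBP4 in 39.3% of CRABP1-type and 60.8% of leukocyte barcodes. Unthinned, UABP-2 was found in 79.6%, 76.6% and 81.5% of them, and ACP5 in 97.2% of CRABP1-type and 97.3% of leukocyte barcodes. Thinning left 318 CRABP1-type, 1391 leukocyte and 2649 endothelial barcodes of library 2. The thinned shares were lower in CRABP1-type than in leukocyte barcodes, so they are read as background and no expression in stroma is read from them.

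The other 7 of the lowest 10 were TMOD1, CHSY3, MAGI2, TMTC2, SOX5, AUTS2 and LRMDA. TMOD1, a tropomodulin that caps actin filaments, stood at 2.29 CPM in CRABP1-type stroma of library 1 and 167 CPM in that of library 2 (-6.18, -7.04 to -5.44). In library 2 its thinned share was 14.5% of CRABP1-type, 0.2% of leukocyte and 0.4% of endothelial barcodes, and its unthinned shares were 43.7%, 0.902% and 2.71%, so it was not spread over all cells alike. CHSY3, a chondroitin synthase, stood at 1.38 CPM in library 1 and 291 CPM in library 2, and its share in library 2 was 21.1% of CRABP1-type, 2.1% of leukocyte and 8.6% of endothelial barcodes. The transcription factor gene SOX5 stood at 16.2 CPM in library 1 and 1292 CPM in library 2, and AUTS2 at 9.18 CPM and 1206 CPM in the same order. SOX5 had a log2 ratio of -5.46 and AUTS2 of -6.54 in endothelial barcodes as well. LRMDA had 1.38 CPM in library 1 against 314 CPM in library 2, and a share of 21.1% in CRABP1-type barcodes of library 2, 21.5% in leukocytes and 49.7% in endothelial barcodes.

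AUTS2, SOX5, MAGI2 and LRMDA belong to a list of genes with very long introns, and all 23 tested members of that list were 2-fold lower in library 1 (median -3.92). Its median was -3.33 in endothelial and -3.31 in leukocyte barcodes, with 20 of 20 tested genes 2-fold lower in each. Whether intron reads were counted alike in both libraries is not given in the sources used here, and its part in these ratios was not tested. COL23A1 had a ratio of -1.53 in CRABP1-type stroma, -2.84 in endothelial and -2.26 in leukocyte barcodes.

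Several of the highest ratios belonged to housekeeping genes that were also higher in other cells of library 1. TOMM7 of the mitochondrial import machinery (2.82), COX7B of the respiratory chain (2.69) and SNRPE of the spliceosome (2.49) were higher in library 1 in CRABP1-type stroma. They had ratios of 2.32, 2.23 and 2.26 in endothelial barcodes. Other high genes, not read as housekeeping here, were C17orf98 (2.63), HSD11B1L (2.55), RPL17-C18orf32 (2.41) and C7H6orf125 (2.91). Their endothelial ratios were 1.98, 1.99, 1.93 and 1.54. HSD11B1L lies next to the ribosomal gene RPL36 in the RefSeq annotation of Sscrofa11.1, and RPL36 has no symbol of its own in the deposited table, so which of them the reads came from is uncertain. The neighbours of C17orf98, RPL17-C18orf32 and C7H6orf125 were not looked up, so the origin of their reads was not examined. Ribosomal protein genes were 2-fold higher in 59 of 62 cases (median 1.86), with RPL22 at 3.16, RPL36A at 3.01 and RPL23A at 2.95. The list's median was 1.24 in endothelial and 1.16 in leukocyte barcodes. Ribosomal protein genes took 16.0% of UMIs in CRABP1-type stroma of library 1 and 4.67% in that of library 2.

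Of the 10 highest, ISYNA1, the inositol phosphate synthase, stood at 252 CPM in CRABP1-type stroma of library 1, against 28.0 CPM in library 2 (3.17, 2.78 to 3.59), and its ratio was 1.76 in endothelial and 1.56 in leukocyte barcodes. TPPP3, a tubulin-binding protein, had 190 CPM in library 1 against 36.3 CPM in library 2 (2.39), and ratios of 1.01 in endothelial and 0.76 in leukocyte barcodes. RGS5, a pericyte gene, had a ratio of 2.71, but its 234 CPM in members came mainly from the clusters led by other cell types, where members had 681 CPM against 35.1 CPM in cluster 1. The clusters were made in library 1 alone and RGS5 is among the leading genes of one of them, so the ratio without them (-0.07, -0.49 to 0.36) sets filtered members against an unfiltered library 2 population and follows from the filter.

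**Figure D5:**
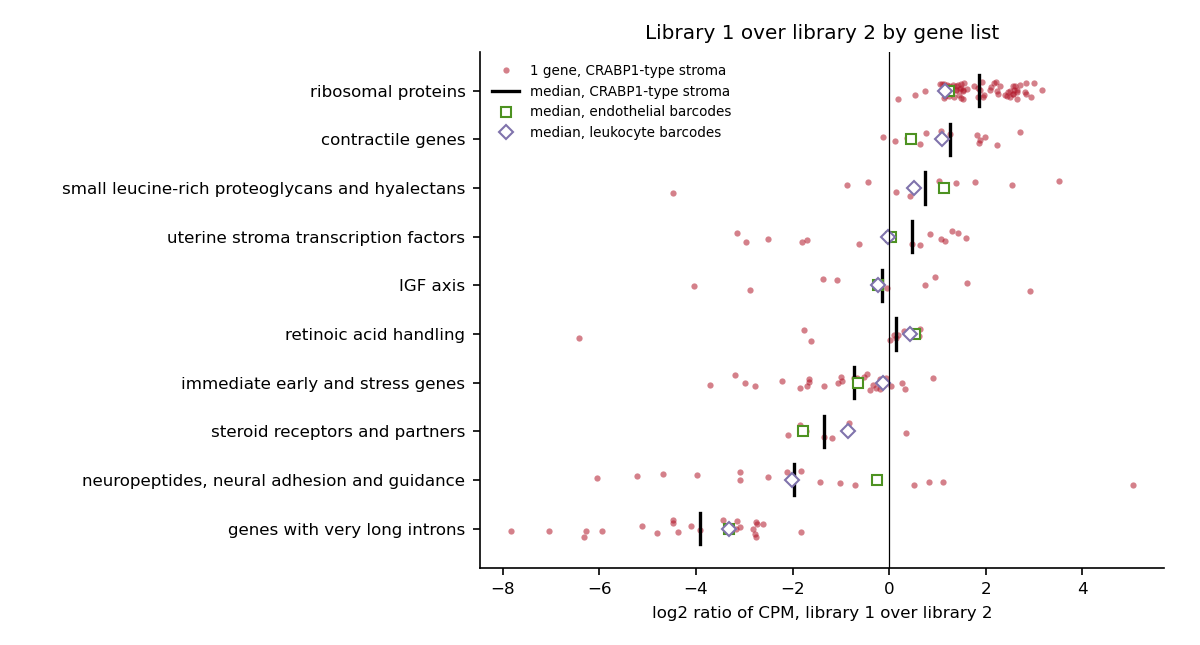
Log2 ratio of CPM, library 1 over library 2, for each tested gene of 10 lists in CRABP1-type stroma (dots), with the list's median there (black line) and in endothelial and leukocyte barcodes (open symbols). Ribosomal protein genes lie at a median of 1.86 and genes with very long introns at -3.92 in CRABP1-type stroma, and both lists lie on the same side of 0 in the other cell types.

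The part of these library-wide shifts in the lists below was not tested, so each list's median in the other cell types of the same libraries stands beside it, and every count is to be read against the 9.35% of all genes called higher and the 27.0% called lower. Of 13 contractile genes, 8 were 2-fold higher in library 1 and none lower (median 1.27, against 0.46 in endothelial and 1.11 in leukocyte barcodes). RGS5 is among these 8. The 7 smooth muscle and pericyte markers summed to 1803 CPM in CRABP1-type stroma of library 1 and 689 CPM in that of library 2. In cluster 5, which has ACTG2 and DES among its leading genes, lay 88 members, and their part in this count was not tested. The smooth muscle actin gene ACTA2 stood at 730 CPM in CRABP1-type stroma of library 1 and 184 CPM in that of library 2, and the myosin kinase MYLK at 144 CPM and 30.6 CPM in the same order. Of 10 proteoglycan genes, 5 were 2-fold higher and 1 lower (median 0.74, against 1.14 in endothelial and 0.51 in leukocyte barcodes). PRELP stood at 65.2 CPM in library 1 and 5.70 CPM in library 2 (3.52), FMOD at 99.8 CPM and 17.1 CPM in the same order (2.54), and GPC6, which is also on the list of genes with very long introns, had a ratio of -4.49 (-3.14 in endothelial barcodes). PRELP had ratios of 2.60 in endothelial and 2.05 in leukocyte barcodes, and FMOD of 0.18 and 1.21.

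Of 7 steroid receptor genes and partners, 5 were 2-fold lower in library 1 (median -1.34, against -1.78 in endothelial and -0.85 in leukocyte barcodes). ESR1 stood at 254 CPM in CRABP1-type stroma of library 1 and 842 CPM in that of library 2 (-1.73, -1.83 to -1.63), with a ratio of -1.91 in endothelial barcodes. PGR stood at 137 CPM in library 1 and 348 CPM in library 2, and the receptor chaperone FKBP5 at 111 CPM and 398 CPM in the same order, with NCOA1 at -2.10. Of 15 uterine transcription factors, 5 were 2-fold higher and 5 were 2-fold lower (median 0.48, against 0.05 in endothelial and -0.01 in leukocyte barcodes). The higher ones were NR2F1 (1.59), HAND2 (1.44), HOXA10 (1.30), TBX3 (1.17) and OSR2 (1.07), and the lower ones included TCF4 (-3.15), MEIS1 (-2.96), MEIS2 (-2.51) and FOXO1 (-1.80). TCF4 is also on the list of genes with very long introns and had a ratio of -2.21 in endothelial barcodes. HOXA10, which endometrial stroma needs for implantation in mice, stood at 851 CPM in library 1 and 346 CPM in library 2.

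Of 11 retinoic acid genes, none was 2-fold higher and 3 were 2-fold lower (median 0.15, against 0.54 in endothelial and 0.43 in leukocyte barcodes): RBP4, ALDH1A2 and RDH10. ALDH1A2 stood at 182 CPM in CRABP1-type stroma of library 1 and 622 CPM in that of library 2 (-1.77), and had ratios of -1.02 in endothelial and 0.13 in leukocyte barcodes. Of 10 IGF genes, IGF1 and STC1 (2.92) were 2-fold higher and 4 were 2-fold lower, with the receptors IGF1R at -4.04 and GHR at -2.89 (median -0.16, against -0.22 in endothelial and -0.23 in leukocyte barcodes). Of 12 WNT genes (median -0.04, against -2.24 in endothelial and -2.29 in leukocyte barcodes, over 4 genes each), the ligand WNT2 was 2-fold higher, at 227 CPM in library 1 and 48.7 CPM in library 2 (2.22), and 3 were 2-fold lower, LEF1 (-1.81), TCF7L2 (-2.79) and, named after its value was seen, RSPO1 (-3.93). Of 4 hedgehog genes above the minimum, GLI3 (-3.18), GLI2 (-2.66) and SUFU (-2.47) were 2-fold lower (median -2.56). The list's median was -0.12 over 2 genes in endothelial barcodes, 1 of them 2-fold higher and 1 of them 2-fold lower. In leukocyte barcodes it was -1.54 over 1 gene. The target gene GLI1 went the other way below that minimum, at 36.9 CPM in library 1 and 2.07 CPM in library 2 (4.15, 2.78 to 6.04). HHIP stood at 11.9 CPM in each library, and with no minimum the list's median was 0.0018.

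Most of the remaining lists had medians below 0. Of 27 stress genes, 12 were 2-fold lower in library 1 and none higher (median -0.73, against -0.65 in endothelial and -0.12 in leukocyte barcodes), with FOSL2 at -3.71, BTG1 at -3.20 and HSPH1 at -2.98. Of 16 neural genes, 11 were 2-fold lower and 2 higher (median -1.98, endothelial -0.25, leukocyte -2.004), with NMB at -5.23, SEMA3A at -4.68 and SST at 5.05, the last from few barcodes as above. Of 16 interferon genes, 6 were 2-fold lower (median -0.49, endothelial -0.56, leukocyte -0.30), with IRF1 at -3.25, MX2 at -2.55 and PARP9 at -1.58. In endothelial barcodes 7 of 17 such genes were 2-fold lower, with MX2 at -2.59, and beside the 27.0% of all genes the count is no result about CRABP1-type stroma. Of 19 BMP and TGF-beta genes, 7 were 2-fold lower and 2 higher (median -0.86, endothelial -0.14, leukocyte -0.55), with the target gene ID1 at 2.37, the receptors BMPR2 at -2.16 and ACVR1 at -2.07. Of 14 growth factor genes, 6 were 2-fold lower and 2 higher (median -0.39, endothelial 0.20, leukocyte 0.05), with NRG1 at -5.93, FGFR2 at -5.55 (-6.41 in endothelial barcodes) and FGF2 at -2.52.

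Of 22 proteases and inhibitors, 4 were 2-fold higher and 6 lower (median 0.02, endothelial -0.36, leukocyte -0.38), with TIMP2 at 438 CPM in library 1 against 2630 CPM in library 2 (a log2 ratio of -2.59, and of -4.93 in endothelial barcodes), ADAMTS4 at -2.54 and ADAMTS6 at -2.17. Of 20 elastic and matricellular genes, 4 were 2-fold higher and 6 lower (median -0.29, endothelial 0.91, leukocyte 0.48), with TNR at -7.60, FBLN2 at 1.96 and THBS1 at -1.68. Of 14 fibrillar collagen genes, 2 were 2-fold higher and 2 lower (median 0.31, endothelial 0.68, leukocyte 0.48), with COL5A1 at 1.41, CRTAP at 1.24 and PCOLCE2 at -1.66. Of 7 other collagens (median 0.03, endothelial 0.65, leukocyte 0.78), COL12A1 was 2-fold lower (-1.95), with LAMB2 at 0.97 and LAMC1 at -0.67. Of 11 universal fibroblast genes, 1 was 2-fold higher and 5 lower (median -0.72, endothelial 0.62, leukocyte -0.23), with LY6E at -2.98 and GFPT2 at -2.89. Of 7 genes on the complement list (median -0.36, endothelial 0.63, leukocyte 0.27), SERPING1 (-2.17) and C1R (-1.28) were 2-fold lower, and CFD had a ratio of -0.83. The C1q/TNF-related gene C1QTNF2 (1.56), named after its value was seen, was 2-fold higher. SERPING1 had ratios of 0.51 in endothelial and 0.23 in leukocyte barcodes.

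Of 11 chemokine and cytokine genes, 5 were 2-fold lower in library 1 (median -0.40, endothelial 0.20, leukocyte 0.08), with CCL2 at 29.7 CPM in library 1 and 249 CPM in library 2, CXCL10 at -2.64 and CXCL2 at -1.77. Of 15 lipid genes, 2 were 2-fold higher and 5 lower (median -0.50, endothelial -0.55, leukocyte 0.12), with ANGPTL4 at -2.39, PDK4 at -2.11 and LIPA at -1.50. Of 19 hypoxia and glycolysis genes, 1 was 2-fold higher and 5 lower (median 0.31, endothelial 0.25, leukocyte 0.00595), with NDRG1 at -2.59, SLC2A3 at -2.19 and PFKFB3 at 13.5 CPM in library 1 and 53.9 CPM in library 2. Of 4 prostaglandin genes, 3 were 2-fold lower (median -1.98, endothelial 0.09, leukocyte -0.77), and PTGS2, the inducible cyclooxygenase, stood at 4.90 CPM in library 1 and 58.6 CPM in library 2 (-3.58). HPGD, which breaks prostaglandins down, stood at 210 CPM in CRABP1-type stroma of library 1 and 118 CPM in that of library 2 (0.83). Neither of 2 proliferation genes was 2-fold apart (median -0.05, endothelial 0.94, leukocyte 0.98).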

How the data were processed

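Endometrial cells of 2 sows were profiled by droplet capture of transcript 3' ends, 1 library per sow. The deposited matrices hold raw UMI counts for 26881 features, which the authors made with Cell Ranger. Its version is 6.1.0 per the file headers and 2.1.1 per the submitters' processing notes. The genome build, the counting of intron reads and any removal of barcodes by the authors were not given in the sources used here. Library 1 held 45388759 UMIs (median 3431 per barcode) and library 2 held 87514969 (median 4335). Symbols were given for 10753 features, which held 72.1% and 71.0% of the UMIs of libraries 1 and 2, and only these were named or counted.

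The members and gene lists were chosen with earlier results of these data known. UMIs were summed per population and scaled to CPM. Log2 ratios took exact conditional binomial 95% intervals, with a floor of 3 UMIs. Genes with a mean of at least 20 CPM over both populations were counted, leaving out the 14 genes of the rule and PTPRC, and a gene was called at 2-fold. No test across samples was possible. Named genes were the 15 highest and 12 lowest ratios between stromal types and the 10 highest and 10 lowest between libraries, at 100 CPM or more in the higher population and at least 10 UMIs in all, and the 3 largest ratios of each list at 50 CPM or more. Ribosomal protein genes were kept to their list. A few genes that these rules would name are not reported here.

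Leukocyte barcodes were chosen on UMIs of PTPRC, and endothelial ones on summed UMIs of PECAM1, CDH5 and VWF with no PTPRC. Both sets also had to have no PDGFRA UMI and a collagen share under 1%. Detection was compared on barcodes thinned to 1000 UMIs, leaving out shallower ones. The gated barcodes were clustered without the genes of the rule, on 2000 variable genes, 20 components, 15 neighbours and Leiden resolution 0.5. Doublets were called with Scrublet in scanpy 1.11.5 and left in, except in 1 alternative. Further tools were Python 3.11.15, scipy 1.17.1, igraph 0.11.9, R 4.3.3 and edgeR 4.0.16 (TMM scaling only). The ratios and thinning were tested on simulated data. Alternatives covered the rule's thresholds, depth and doublet filters, the CPM minimum, scaling, weighting of barcodes and cluster resolution.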

Additional observations from a re-analysis of the deposited data

Results flagged for a closer look

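Of 101 named or example genes compared between libraries, 11 had ratios of CRABP1-type over ANPEP-type stroma with opposite signs and with both intervals away from 0. The libraries were 1 each and their difference was not tested, so the pairs are given as values. The genes of stress response GADD45G, GADD45B and DNAJB1 had log2 ratios of 1.08, 0.86 and 0.80 in library 1 and of -0.50, -0.25 and -0.50 in library 2. The homeodomain-only gene HOPX had 1.09 in library 1 and -0.37 in library 2. SYNPO2, an actin-associated gene, had 0.70 in library 1 and -0.90 in library 2, where CRABP1-type stroma had 304 CPM and ANPEP-type stroma 567 CPM. ADM, the adrenomedullin precursor, had 0.36 in library 1 and -1.16 in library 2, where CRABP1-type stroma had 111 CPM and ANPEP-type stroma 250 CPM. IGF1 had 0.19 in library 1 and -0.30 in library 2. The ribosomal gene RPS24 had 0.52 in library 1 and -0.17 in library 2.

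In the other direction, COL1A1, which the gate reads in both populations, had -0.71 in library 1 and 0.060 in library 2, and the progesterone receptor membrane component PGRMC1 had -0.29 in library 1 and 0.23 in library 2. NMB had -3.90 in library 1, where 1 ANPEP-type barcode held 197 of the 365 UMIs of that population, and 0.30 in library 2.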

How the results depend on the processing

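For the named genes between stromal types, none of 351 values turned sign under the alternatives run, 257 moved by less than their interval and 94 moved further. Named genes were chosen for the most extreme ratios of the same barcodes, so a turn of sign was unlikely from the start. The count is no check of their direction. Between libraries, 1 of 280 values turned sign: RGS5 had a log2 ratio of -0.069 without the clusters led by other cell types, which were left out in library 1 alone one of which has RGS5 among its leading genes, so the filter itself gives this turn. That alternative, like the rule without COL23A1, was added after seeing the data. For list medians a turn of sign was scored only where the main median was at least 2-fold in size. Turns of smaller medians, which are most of those between stromal types, were not counted. So scored, none of 350 list medians between stromal types turned sign, and of 377 between libraries 2 did. Both rest on a changed set of tested genes: prostaglandin genes between libraries stood at 0.83 with a minimum of 50 CPM and hedgehog genes at 0.0018 with no minimum. The rule read on barcodes thinned to 2000 UMIs kept 501 members, and then 68 genes were 2-fold higher between stromal types. With barcodes thinned to 1000 UMIs, 88 genes were 2-fold higher and 140 lower. Without called doublets 105 were lower. With a minimum of 50 CPM, 25 were higher and 34 lower, and with no minimum 232 were higher and 323 lower. Between libraries these minimums gave 309 higher and 887 lower, and 969 higher and 2206 lower. At Leiden resolution 0.3 the clusters where CRABP1-type barcodes outnumbered ANPEP-type ones held 79.8% of members, against 87.2% at 0.5. They also held 16.0% of ANPEP-type and 35.1% of undivided barcodes at 0.3, and 26.5% and 49.7% at 0.5. Members outnumbered ANPEP-type barcodes in all (1098 against 714), so clusters led by other cell types are counted too. Cluster 5 at 0.5, for example, held 88 members and 86 ANPEP-type barcodes. TMM scaling gave 663 genes higher and 1271 lower between libraries. No paired analysis was possible because each group is 1 library. Depth limits genes near the floor of 3 UMIs, and with 1 sow per library no alternative here speaks to variation between animals.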

Other observations

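PENK was spread over a minority of CRABP1-type members of library 1. The 113 members with at least 3 PENK UMIs had a median of 6372 UMIs, and 75.2% of them lay in cluster 1. The 732 members with none had a median of 5285 UMIs, and 61.9% of them lay in cluster 1. SST was found in 6 of the 113 members (5.31%, 1.97% to 11.2%) and in 17 of the 732 (2.32%, 1.36% to 3.69%). Of the 253 members with 1 or 2 PENK UMIs, 8 (3.16%) had SST. The 2 peptide precursors were thus found in the same barcode in few members. These sets differed in depth and the intervals count barcodes of 1 sow, so neither a difference nor a likeness is read from the shares. Members held 68.6% of the 491 SST UMIs of library 1 and 51.1% of its WT1 UMIs, with 6536313 of its 45388759 UMIs in all. Their shares of its PENK UMIs (57.7%) and CRABP1 UMIs (66.0%) are set by the rule, which read both genes.

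Some genes below the level set for named genes had larger ratios between the stromal types of library 1, and they were chosen after their values were seen. The kinesin heavy chain gene KIF5C stood at 62.7 CPM in CRABP1-type and 5.22 CPM in ANPEP-type stroma (log2 ratio 3.59, 2.97 to 4.28). The guanine nucleotide exchange factor gene VAV3 stood at 86.1 CPM in CRABP1-type and 23.7 CPM in ANPEP-type stroma (1.86), and its ratio was 0.65 in library 2. NTRK2, the receptor of brain-derived neurotrophic factor, stood at 95.8 CPM in CRABP1-type and 44.8 CPM in ANPEP-type stroma (1.10), with 0.06 (-0.13 to 0.25) in library 2.

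A group of 14 members in the small cluster 9 had high levels of stress response genes. GADD45G stood at 2395 CPM in these members and 749.8 CPM in those of cluster 1, ATF3 at 1470.0 CPM and 312 CPM, ID1 at 1685 CPM and 722 CPM, and ADM at 727 CPM and 197 CPM, each in that order. The cluster was made from these genes among others, so the values describe it.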
